A study of Mus musculus with 170 samples.

Results

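The genes described here are 10 members of the BCL2 family and its BNIP3 branch that decide on survival or death at the mitochondrion, of 40549 genes in the expression table. They are the survival genes Bcl2, Bcl2l1 and Mcl1, the pore former Bax, the BH3-only genes Bcl2l11, Bbc3, Pmaip1 and Bid, and the related genes Bnip3 and Bnip3l. They were chosen by name, with earlier results of these data known. All 10 had a row in the table, and all 10 passed the filter on low values (TPM above 0 in more than 10 of the cells compared) in both comparisons below. TPM is a transcript's abundance corrected for its length, with every cell brought to the same sum. Levels can thus be set side by side between genes, and between cells only as shares of each cell's total.

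Transcripts were measured by Smart-seq2, a full-length method that primes on poly(A) tails, in hand-picked single cells from the ventricle of C57BL/6 mouse hearts at embryonic day 9.5. The conditional knockout (cKO) was Mesp1Cre/+ Dgcr8 loxP/loxP, in which Cre made from the Mesp1 locus deletes Dgcr8 in early mesoderm, the source of heart muscle, endothelium and epicardium alike. The control, labelled wild type, carried the same floxed Dgcr8 alleles without Cre, and both genotypes carried the ROSA26 mT/mG membrane reporter. Dgcr8 encodes the partner of Drosha that is needed to cut most microRNA precursors out of their primary transcripts, so its loss is meant to remove microRNAs as a class. The table covers 74 control and 69 cKO cells from 2 sequencing batches (35 and 39 control, 35 and 34 cKO).

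The labels name no embryo or litter, so each genotype counts as 1 sample. Every difference below describes these libraries, SDs are scatter across cells, and no test was run. The targeted gene was a weak check of the labels, since TPM per gene does not resolve the deleted exon: Dgcr8 reached a TPM of 1 in 30 of 74 control cells and in 21 of 69 from cKO hearts. The X-linked transcript Xist reached it in 3 of 74 control and 64 of 69 cKO cells, and the Y-linked Ddx3y in 49 of 74 and 0 of 69 (which allows up to 4.35% of cells). Genotype and the sex of the embryos therefore cannot be told apart here. Cells were sorted into classes by 55 marker genes, none of them a member. The cardiomyocyte-like (CM-like) class held 94 cells, 27 control (19 in batch 1, 8 in batch 2) and 67 cKO (33 and 34), with all 15 cardiomyocyte markers above the remaining cells. The other 47 control cells were 22 endothelial-like, 13 epicardial-like, 5 erythroid-like and 7 cells left unnamed. Detected genes (TPM above 0) in CM-like cells, the one measure of depth that the table keeps, had a median of 8458 in control and 9845 in cKO cells of batch 1, and of 9704 and 7765 in batch 2. The order of the genotypes in depth thus turned round between batches.

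BCL2 family proteins meet at the outer mitochondrial membrane. BAX and its relative BAK open pores that release cytochrome c and start the caspases. BCL2, BCL-XL (from Bcl2l1) and MCL1 hold them in check, and the BH3-only proteins BIM (Bcl2l11), PUMA (Bbc3), NOXA (Pmaip1) and BID bind the survival proteins or BAX itself to tip the balance. BNIP3 and NIX (from Bnip3l) carry a weaker BH3-like stretch and are known above all as receptors on mitochondria that recruit the autophagy machinery. Bnip3 is a textbook target of the hypoxia-inducible factor HIF1. Cardiomyocytes, packed with mitochondria, depend on both kinds of control.

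Of the 10 members, Bnip3 and Bnip3l were higher in cKO than in control CM-like cells, by 2.25 and 1.5 on the log2(TPM + 1) scale, and each by a like amount in both batches. No other member kept its direction in both batches with a pooled difference of at least 1 log2 unit. Counted by that rule, 2 of 10 members were higher, where 6.34% of all 15071 genes compared were, and 0 were lower, where 6.18% of all genes were. Over the 10 members the median difference was 0.37 (0.81 in batch 1, -0.40 in batch 2), and over all genes it was 0.05 (0.17 and -0.20). In 6 of the 10 members the sign of the difference was positive in batch 1 and negative in batch 2.

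**Figure D1:**
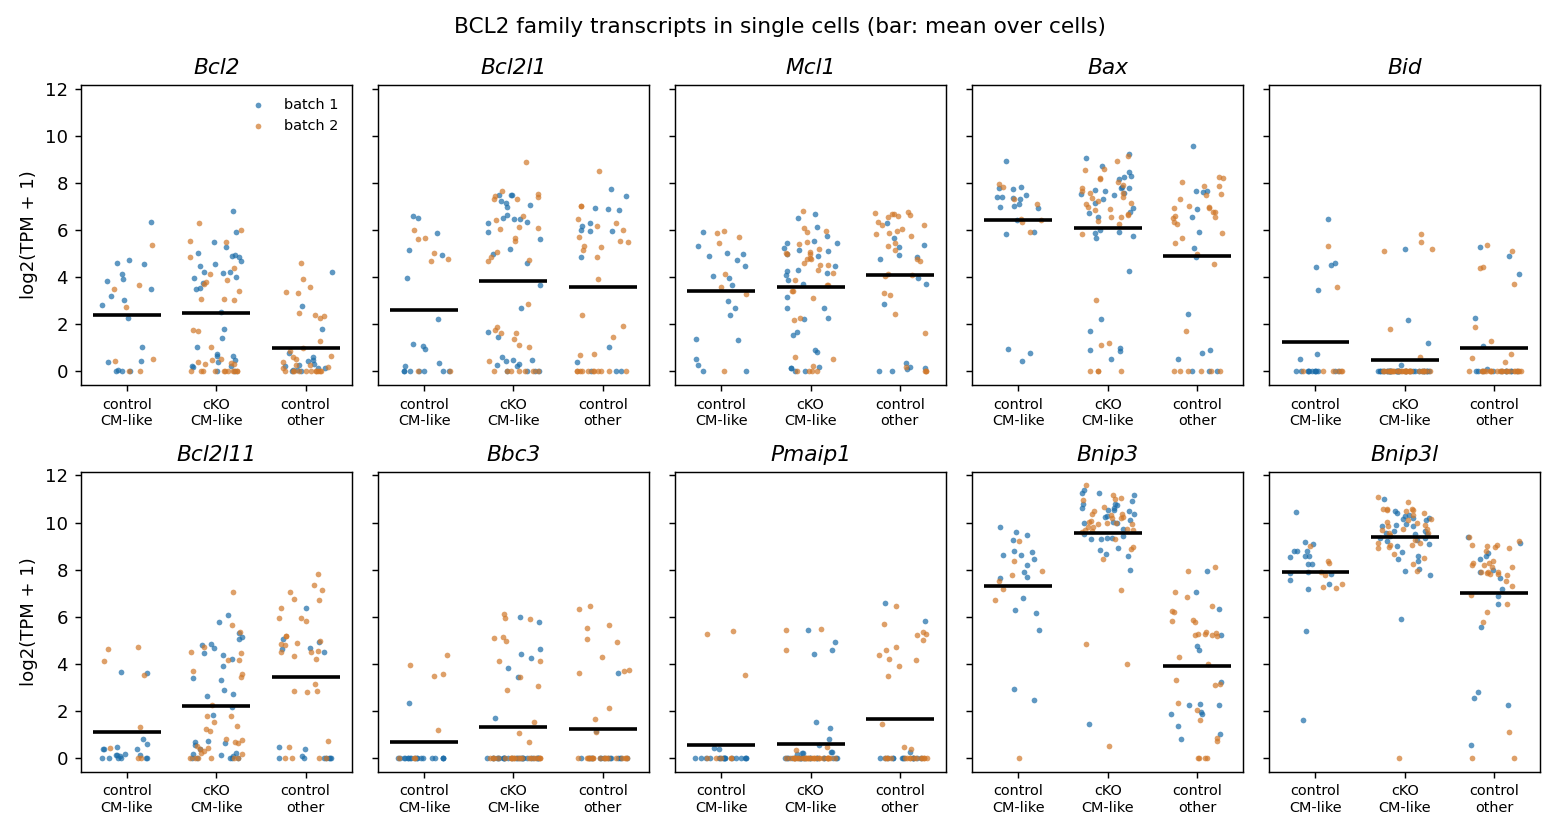
Each point is 1 cell and the vertical axis is its log2(TPM + 1), for the 10 members in control CM-like (27), cKO CM-like (67) and other control cells (47). Blue points are batch 1, orange points batch 2, and the black bar is the mean over cells. Bnip3 and Bnip3l of cKO CM-like cells gather at the top of their panels, while Pmaip1, Bid and Bbc3 lie at or near 0 in most cells.

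Bnip3 lies on chromosome 7 (GRCm38, positions 138890836 to 138909519, minus strand). In control CM-like cells its TPM ran from 0 through a median of 239 to 908, and in cKO CM-like cells from 0.43 through 1013 to 3063. Within batch 1 the lowest, median and highest TPM were 4.59, 293 and 908 in control and 1.74, 1114 and 2667 in cKO cells. Within batch 2 they were 0, 200.2 and 595 in control and 0.43, 996 and 3063 in cKO cells. The ranges of the genotypes overlapped in both batches, where 20 of 33 and 27 of 34 cKO cells lay above the highest control cell of their batch. Over both batches, 62 of 67 cKO cells exceeded the control median and 39 exceeded the highest control cell. The mean log2(TPM + 1) was 7.32 ± 2.31 (SD over 27 cells) in control and 9.57 ± 1.98 (67 cells) in cKO, a difference of 2.25 in batch 1 and 2.53 in batch 2. Of all genes compared, 99.3% had a smaller difference. The start of Bnip3, a textbook target of HIF1, is shown next. It covers 250 bases before and 50 after the transcription start (RefSeq, GRCm38.p6, chr7:138909457-138909756, minus strand). Capitals mark each match to the core of the hypoxia response element.

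Bnip3: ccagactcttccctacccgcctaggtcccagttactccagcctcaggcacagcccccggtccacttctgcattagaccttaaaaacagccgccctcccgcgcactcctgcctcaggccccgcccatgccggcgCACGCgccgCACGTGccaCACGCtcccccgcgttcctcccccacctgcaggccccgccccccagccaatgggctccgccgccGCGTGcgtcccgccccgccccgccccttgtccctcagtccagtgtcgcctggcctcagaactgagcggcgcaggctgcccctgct

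The letters searched were ACGTG and GCGTG on both strands, and they gave 5 matches in this window, at 117, 108, 107, 99 and 35 bases before the start. Those at 108 and 107 are the same palindrome read on either strand. At least 1 match is common, being present in 43.8% of all 32851 promoters of this length, while 5 or more were found in 1.66%. Promoter entries existed for 8 members, 13 windows in all, of which 8 held a match, and none for Bnip3l and Pmaip1. Bax had 4 matches, the Bbc3 windows 4, 1 and 3, those of Bcl2l11 3 and 0, and those of Bcl2l1 0, 1 and 1. Bcl2, Bid and Mcl1 had none. At least 3 matches were found in 5 of the 13 member windows and in 8.93% of all promoters. These shares were not matched for base content, and G and C made up 71.7% of the Bnip3 window. A match is a description of letters and not a bound site.

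Bnip3l, the closest relative of Bnip3 among the members, lies on chromosome 14 (positions 66985239 to 67008877, minus strand). Its TPM in control CM-like cells was at least 2.10, with a median of 302 and a highest value of 1405. In cKO CM-like cells it ran from 0 through 787 to 2169. The cKO median was above the control median in each batch (730 against 305 in batch 1, 845 against 227 in batch 2), but the separation was unequal. In batch 2, 27 of 34 cKO cells exceeded every control cell, and in batch 1 only 2 of 33 did, where the highest control cell was at 1405. That maximum was 1 cell of 19, whose upper quartile was 439 TPM, and batch 2 had 8 control cells. The mean log2(TPM + 1) was 7.89 ± 1.55 in control and 9.40 ± 1.48 in cKO, a difference of 1.47 in batch 1 and 1.53 in batch 2. A pseudogene annotated as Bnip3l-ps could share reads with this gene, and how Salmon divided them is not known.

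**Figure D2:**
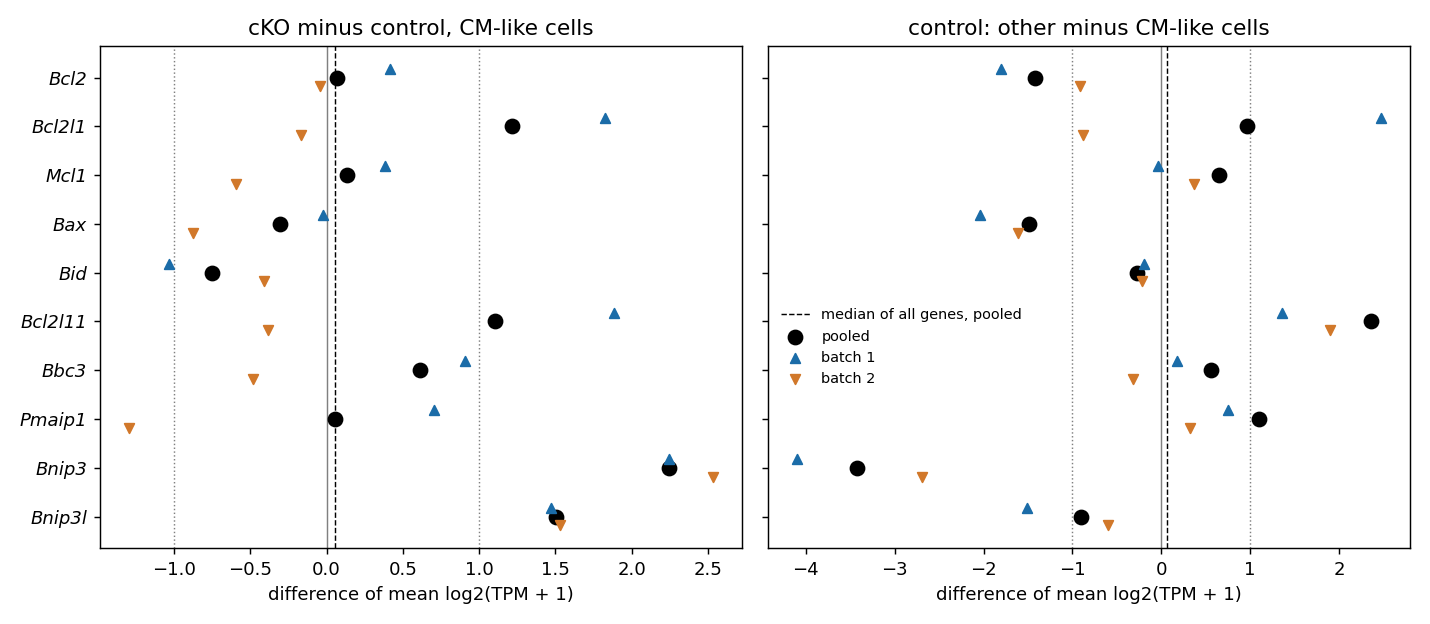
Differences of mean log2(TPM + 1) for each member, cKO minus control among CM-like cells on the left and other minus CM-like cells of the control on the right. Black circles are pooled values, triangles the separate batches, the dashed line the median of all genes and the dotted lines 1 log2 unit. On the left the 3 symbols of Bnip3 (2.25, 2.25 and 2.53) and of Bnip3l (1.5, 1.47 and 1.53) sit together beyond the dotted line, whereas those of Bcl2l11, Bcl2l1 and Pmaip1 lie on both sides of 0.

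The gain changed the rank of the pair within cells. Bnip3 exceeded Bnip3l in 10 of 27 control and 45 of 67 cKO CM-like cells, in 7 of 19 against 25 of 33 within batch 1 and 3 of 8 against 20 of 34 within batch 2. Outside the CM-like class it did so in 4 of 47 control cells, and in none of 22 endothelial-like and 13 epicardial-like cells. Together the pair made up a median of 71.6% of the summed TPM of the 10 members in control CM-like cells, 88.1% in cKO CM-like cells and 59.6% in other control cells.

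Across the 67 cKO CM-like cells Bnip3 and Bnip3l varied together (Pearson 0.78, Spearman 0.62), in batch 1 (0.73 and 0.62, 33 cells) as in batch 2 (0.83 and 0.65, 34 cells). Part of this rested on 4 cells with either gene under 100 TPM, which had 4468 to 8456 detected genes and 12.8% to 20.6% mitochondrial TPM, against a median of 3.00% in the class. Among the 63 cells with both genes at 100 TPM or more, Pearson was 0.53 and Spearman 0.56. All these points share 1 sample and a fixed TPM total per cell. The genes most like Bnip3 over the 67 cells, of 5752 genes seen in at least 50% of them, were Cd81 (Pearson 0.88, Spearman 0.64), Dpysl2 (0.86, 0.58) and Rpl10 (0.86, 0.46). Those most like Bnip3l were Gng5 (0.84, 0.28), Pgk1 (0.84, 0.38) and Pgam1 (0.79, 0.64), the last 2 being glycolytic enzymes. For each of these genes Spearman was lower than Pearson.

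**Figure D3:**
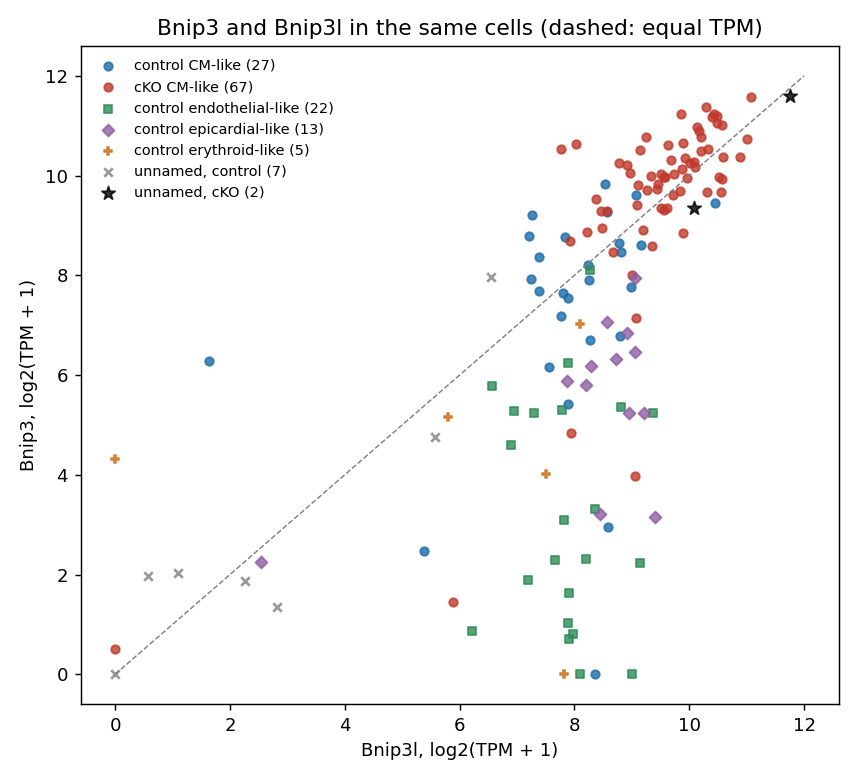
Each symbol is 1 cell, with log2(TPM + 1) of Bnip3l on the horizontal and of Bnip3 on the vertical axis, coloured by class and genotype, and the dashed line marks equal TPM. The cKO CM-like cells crowd the upper right corner on both sides of the line, and the endothelial-like and epicardial-like cells lie below it at control levels of Bnip3l.

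The survival genes did not share this course. Bcl2 (chromosome 1, positions 106538178 to 106714274, minus strand) had a median of 6.10 TPM (0 to 80.7) in control and 4.81 TPM (0 to 112) in cKO CM-like cells. Its mean log2(TPM + 1) was 2.41 ± 1.99 and 2.48 ± 2.18, a difference of 0.42 in batch 1 and -0.04 in batch 2, and it was found at a TPM of 1 or more in 17 of 27 control against 40 of 67 cKO cells. The groups overlapped almost wholly, with 1 cKO cell above the highest control cell. Mcl1, a short-lived survival protein's gene on chromosome 3 (positions 95658788 to 95663176, plus strand), had a median of 14.5 TPM (0 to 61) in control and 17.2 TPM (0 to 110.4) in cKO cells. The pooled difference of 0.13 combined 0.38 in batch 1 with -0.60 in batch 2.

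Bcl2l1 (chromosome 2, positions 152780668 to 152831728, minus strand) was the survival gene with the largest gap. Its median was 1.24 TPM (0 to 96.9) in control and 25.6 TPM (0 to 473) in cKO CM-like cells, and it was detected in 15 of 27 (55.6%, exact 95% interval 35.3 to 74.5) and 48 of 67 (71.6%, 59.3 to 82). The pooled difference was 1.22, with 1.83 in batch 1 and -0.17 in batch 2, where 6 of 8 control and 26 of 34 cKO cells were positive. Without the CM-like cells that had 3 or more markers of other classes (18 control and 24 cKO cells kept), Bcl2l1 stood at 1.35, with 0.27 in batch 1 and 4.32 in batch 2, where 1 control cell was left. In that set 4 members were higher (Bnip3, Bnip3l, Bcl2l1 and Bbc3). With 1 control cell in batch 2 the sign rule is weak there, and no share over all genes is given beside this count. Counting single batches, 4 of 10 members were at least 1 log2 unit higher in cKO cells of batch 1 (Bnip3, Bnip3l, Bcl2l1 and Bcl2l11), where 12.9% of all genes were, and 1 was lower (Bid), where 3.76% were. In batch 2, 2 members were higher (Bnip3 and Bnip3l), where 5.41% of genes were, and 1 was lower (Pmaip1), where 21.8% were.

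Bax, the pore former (chromosome 7, positions 45461697 to 45466898, minus strand), was abundant in both genotypes. Its TPM had a median of 135 (0.38 to 486) in control and 136 (0 to 599) in cKO CM-like cells, and 24 of 27 and 59 of 67 cells had it at a TPM of 1 or more. The means differed by -0.31, with -0.03 in batch 1 and -0.88 in batch 2, and 34 of 67 cKO cells lay above the control median. In batch 2 the medians were 111.5 in control and 131 in cKO cells, and 4 cKO cells but no control cell had a TPM of 0 there. A second gene model, Gm45808, overlaps Bax on the same strand, so some reads cannot be placed with certainty.

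Among the BH3-only genes, Bcl2l11 (BIM, chromosome 2, positions 128126038 to 128162547, plus strand) was found in more cKO cells. It reached a TPM of 1 in 7 of 27 control (25.9%, exact 95% interval 11.1 to 46.3) and 37 of 67 cKO CM-like cells (55.2%, 42.6 to 67.4). These intervals cover counting error only. Its median was 0.29 TPM (0 to 25.2) in control and 1.92 TPM (0 to 130.2) in cKO cells. The gap lay in batch 1, with 2 of 19 control against 19 of 33 cKO cells and a difference of 1.88. In batch 2, 5 of 8 control and 18 of 34 cKO cells were positive and the difference was -0.39. The median number of detected genes followed the same order, higher in cKO cells of batch 1 and lower in those of batch 2, and its part in the gap was not tested. Among cells with 8000 to 10000 detected genes (15 control, 28 cKO) the pooled difference was 1.34. Within batch 2 of that set (5 control, 12 cKO) the cKO mean was again the lower one.

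Bbc3 (PUMA), a p53 target on chromosome 7 (positions 16308393 to 16318205, plus strand), had a median of 0 TPM in both genotypes, with highest values of 19.7 in control and 68.5 in cKO CM-like cells. A TPM of 1 or more was seen in 6 of 27 control and 21 of 67 cKO cells, and the difference of 0.61 pooled went from 0.91 in batch 1 to -0.48 in batch 2. Without the CM-like cells with 3 or more markers of other classes it was 1.31 for Bbc3, with 1.34 in batch 1 and 1.28 against the 1 control cell left in batch 2. Pmaip1 (NOXA, chromosome 18, positions 66458533 to 66465565, plus strand) was found in 3 of 27 control cells and in 9 of 67 from cKO, and its sign also turned, from 0.71 to -1.30. Bid (chromosome 6, positions 120891930 to 120916853, minus strand), cut by caspase-8 in the death receptor pathway, was the BH3-only gene lower in cKO cells of both batches, by -1.03 and -0.41 and -0.75 pooled. It was found in 7 of 27 control (25.9%, 11.1 to 46.3) and 8 of 67 cKO cells (11.9%, 5.30 to 22.2), and these intervals overlap. They cover counting error over cells only, so their overlap is no test between genotypes. Bid shares its locus with Bcl2l13 on the opposite strand, and Smart-seq2 reads carry no strand.

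Within single cells, any of the 4 BH3-only genes reached a TPM of 1 in 14 of 27 control (51.9%, 31.9 to 71.3) and 48 of 67 cKO CM-like cells (71.6%, 59.3 to 82). The shares were 7 of 19 against 25 of 33 in batch 1 and 7 of 8 against 23 of 34 in batch 2. Each of the CM-like cells with Bcl2l11, 7 control and 37 cKO, also had Bcl2, Bcl2l1 or Mcl1 at that level. All 3 survival genes were found together in 9 of 27 control and 23 of 67 cKO cells, and none of them in 2 and 3 cells.

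Since the design removes microRNAs as a class, the seeds (bases 2 to 8, in capitals) of microRNAs from well-known families were set against the longest annotated 3′ UTR of each member. The 5 shown, from RefSeq, are those whose seed matches are printed below.

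miR-17-5p: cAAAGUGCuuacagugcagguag
miR-92a-3p: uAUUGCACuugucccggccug
miR-19b-3p: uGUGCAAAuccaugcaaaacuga
miR-24-3p: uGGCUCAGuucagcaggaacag
miR-221-3p: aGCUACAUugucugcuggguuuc

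The first 3 are encoded together on chromosome 14, and miR-20a-5p shares the seed of miR-17-5p as miR-25-3p shares that of miR-92a-3p. In all, 13 microRNAs with 10 seeds were searched: these 5 and miR-15a-5p with miR-16-5p, miR-29a-3p, miR-34a-5p, let-7a-5p and miR-541-5p. The number of matches to bases 2 to 8 differed widely between members. The Bcl2l11 3′ UTR of 4218 bases held 10 matches to 6 seeds. The 2572 bases of Bnip3l held none, the 1079 bases of Bnip3 held 1, and the 2192 bases of Pmaip1 held none. Bbc3 had 4 matches in 971 bases, Mcl1 3 in 2353, Bcl2 2 in 5086, Bcl2l1 2 in 1477, Bid 2 in 1427 and Bax 1 in 224. The sites of Bcl2l11 that also have an A opposite base 1 are printed next with the single site of Bnip3, each with up to 11 bases on either side and the seed match in capitals.

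Bcl2l11, miR-24-3p (chr2:128158805-128158811, plus strand): tgcagtgggaaCTGAGCCagctgatttat
Bcl2l11, miR-17-5p (chr2:128160452-128160458, plus strand): ccccgactggaGCACTTTactgtctcagc
Bcl2l11, miR-24-3p (chr2:128161157-128161163, plus strand): tcactcgtcaaCTGAGCCaaatgtctctg
Bcl2l11, miR-221-3p (chr2:128162366-128162372, plus strand): gaacccagcgtATGTAGCatttgtattgc
Bcl2l11, miR-92a-3p (chr2:128162449-128162455, plus strand): ccactgtacctGTGCAATactgctgtaaa
Bnip3, miR-19b-3p (chr7:138891818-138891824, minus strand): gtccttgggtgTTTGCACtatgtgtgtta

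Such letters are common: the miR-17-5p match was present in 11.8% of 20990 3′ UTRs, that of miR-92a-3p in 6.57%, of miR-19b-3p in 11.5%, of miR-24-3p in 16.2% and of miR-221-3p in 9.46%. Among the 10 seeds searched, Bnip3 and Bnip3l, higher in both batches, had 1 and 0 matches. Bcl2l11, higher in batch 1 alone, had 10, and Bcl2l1, also at least 1 log2 unit higher in batch 1 alone, had 2. The remaining members whose sign turned from positive to negative were Bbc3, Mcl1, Bcl2 and Pmaip1, with 4, 3, 2 and 0 matches. Bid and Bax, lower in both batches, had 2 and 1. The search left out several of the microRNAs that the study found most abundant in the heart at this stage, so matches to those are not known. Whether matches bear on the differences was not tested. These are matches of letters in annotated UTRs, not measured sites.

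Control cells alone gave the second comparison, of the 47 other cells with the 27 CM-like cells. Here 2 members were at least 1 log2 unit higher outside the CM-like class (Bcl2l11 and Pmaip1), where 7.71% of 14517 genes were, and 3 were lower (Bnip3, Bax and Bcl2), where 8.76% were. The Bax difference of -1.49 was -0.82 without the 7 unnamed cells, -0.80 among cells with at most 20% mitochondrial TPM and -0.94 among those with at least 6000 detected genes, which left 2 members lower in each case. Bnip3 differed most, with a median of 18.9 TPM (0 to 274) outside against 239 inside the class and a difference of -4.10 in batch 1 and -2.69 in batch 2. Among the named classes with more than 10 cells its median was lower in endothelial-like cells, at 5.76 TPM (0 to 274), than in epicardial-like cells, at 58.1 TPM (3.78 to 245), and in the 7 unnamed control cells it was 2.93 TPM (0 to 248.6). Bnip3l did not follow it. Its medians were 237 TPM in endothelial-like, 420 in epicardial-like and 302 in CM-like control cells, and its mean log2(TPM + 1) in the first 2 classes differed from that of CM-like cells by -0.02 and 0.36. In the 7 unnamed cells Bnip3l averaged 2.70, and without them its pooled difference of -0.90 became -0.15.

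**Figure D4:**
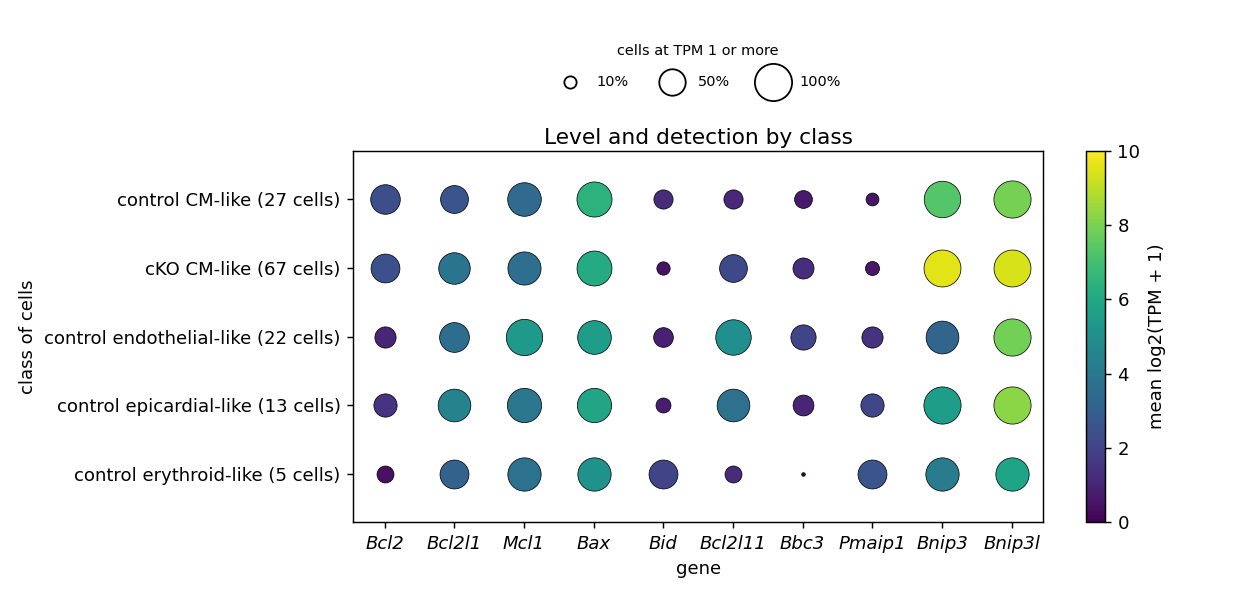
Circles show each member in 5 groups of cells, with area for the percentage of cells at a TPM of at least 1 and colour for the mean log2(TPM + 1). Lighter colours are higher means. Bcl2l11 and Mcl1 are highest in the endothelial-like row (4.94 and 5.37), and Bnip3 and Bnip3l in the cKO CM-like row (9.57 and 9.40). Bbc3 is at 0 in all 5 erythroid-like cells.

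Bcl2l11 was highest in endothelial-like cells, at a median of 30.9 TPM (0 to 225) with 20 of 22 cells positive (90.9%, 70.8 to 98.9). This stood 3.83 log2 units above control CM-like cells, 3.12 in batch 1 and 3.17 in batch 2, and 2.73 above cKO CM-like cells. The gap to cKO cells was unequal between batches. In batch 1 the means were 3.70 (7 endothelial-like cells) and 2.46 (33 cKO CM-like cells), and in batch 2 they were 5.52 (15) and 1.96 (34). Epicardial-like cells had a median of 21.5 TPM with 10 of 13 positive, and 1 of 5 erythroid-like cells was positive. Mcl1 followed in the same class, at 50.9 TPM (0 to 107) against 14.5 in control CM-like cells, a difference of 2.24 in batch 1 and 1.14 in batch 2. Every endothelial-like cell had at least 1 of the 4 BH3-only genes (22 of 22, 84.6 to 100%), and 19 of its 20 cells with Bcl2l11 also had a survival gene. Bcl2 had the opposite pattern, being found in 7 of 22 endothelial-like, 5 of 13 epicardial-like and 17 of 27 CM-like control cells. Bax had pooled medians of 85 TPM in endothelial-like and 108 in epicardial-like cells, below the 135 of CM-like control cells. The endothelial-like median was also below within batch 1 (119 against 135) and batch 2 (79.9 against 111.5). The epicardial-like median was below in batch 1 (76.1, 4 cells) but above in batch 2 (120.2, 9 cells). As the endothelial-like, epicardial-like and erythroid-like cells all came from control hearts, these levels could not be compared between genotypes.

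In order of mean log2(TPM + 1), the control CM-like cells ranked Bnip3l (7.89), Bnip3 (7.32), Bax (6.41), Mcl1 (3.43), Bcl2l1 (2.63), Bcl2 (2.41), Bid (1.25), Bcl2l11 (1.11), Bbc3 (0.70) and Pmaip1 (0.56). Neighbours in this order differed by less than the SD across cells of either gene, except Bax and Mcl1. The cKO CM-like cells put Bnip3 first and moved Bid from the seventh to the last place.

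Other genes of the same pathways were compared among CM-like cells by the same rule, by which 6.34% of all genes were higher and 6.18% lower. Their lists, too, were chosen with earlier results of these data known. Of 15 further BCL2 family genes, 8 passed the filter, 0 were higher and 2 were lower. The 2 were the BH3-only genes Bad (-1.30 pooled, -1.99 and -0.35 by batch) and Bik (-1.26, -0.95 and -0.72). Bak1, the partner of Bax in pore formation, had -0.89 (-0.57 and -1.60), and Bcl2l2, a survival gene, 0.32 (0.38 and 0.19). Of 21 genes of the apoptosome and caspases, 1 was higher, the caspase inhibitor Xiap (1.41, 1.32 and 1.56). Its relative Birc2 had 0.97 and the apoptosome scaffold Apaf1 0.94. In this list 3 genes were lower: Htra2 (-1.80), a mitochondrial protease, Birc5 (-1.38), which acts in cell division, and Aifm1 (-1.31), which serves respiratory chain assembly.

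Of 17 compared genes of p53 and its targets, 1 was higher, the death receptor Tnfrsf10b (1.08), and 3 were lower, Ccng1 (-1.81), Perp (-1.75) and Aen (-1.45). Cdkn1a and Mdm2 had pooled values of 2.08 and 1.49 but opposite signs in the batches (3.01 and -1.24, 2.03 and -0.14). They were among 8 genes of the list with mixed signs and were named after their values were seen. Trp53inp1 and Btg2 had 0.57 and 0.52. The list's median was 0.25 in batch 1 and -0.60 in batch 2, beside 0.17 and -0.20 over all genes. Of 8 regulators of Bcl2l11 and Bbc3, 2 were higher, the transcription factor genes Jun (1.70) and Foxo3 (1.61), and E2f1 had -0.67. Of 16 genes of mitophagy and autophagy, 1 was higher, the receptor gene Optn (1.37), and none was lower, while Ulk1 and Sqstm1 had 0.74 and 0.67. Fundc1, another mitochondrial receptor gene, was at -0.18, with 0.43 in batch 1 and -1.01 in batch 2, and was named after its values were seen. Among hypoxia targets, the group that Bnip3 is usually counted with, 14 of 20 genes were higher and all 20 were above 0 in both batches. Its median was 1.33 (1.68 in batch 1, 0.84 in batch 2), led by the glucose transporter Slc2a3 (4.30), the peptide hormone Adm (3.62) and the oxidoreductase Ero1l (3.17).

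The mean of these 20 genes varied with Bnip3 and Bnip3l among the 63 cKO CM-like cells with both at 100 TPM or more, with Pearson 0.37 and 0.41 and Spearman 0.44 and 0.44. For Bnip3 the Pearson value was 0.55 in batch 1 (32 cells) and 0.20 in batch 2 (31 cells). These are descriptions over cells of 1 sample with unknown depth.

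**Figure D5:**
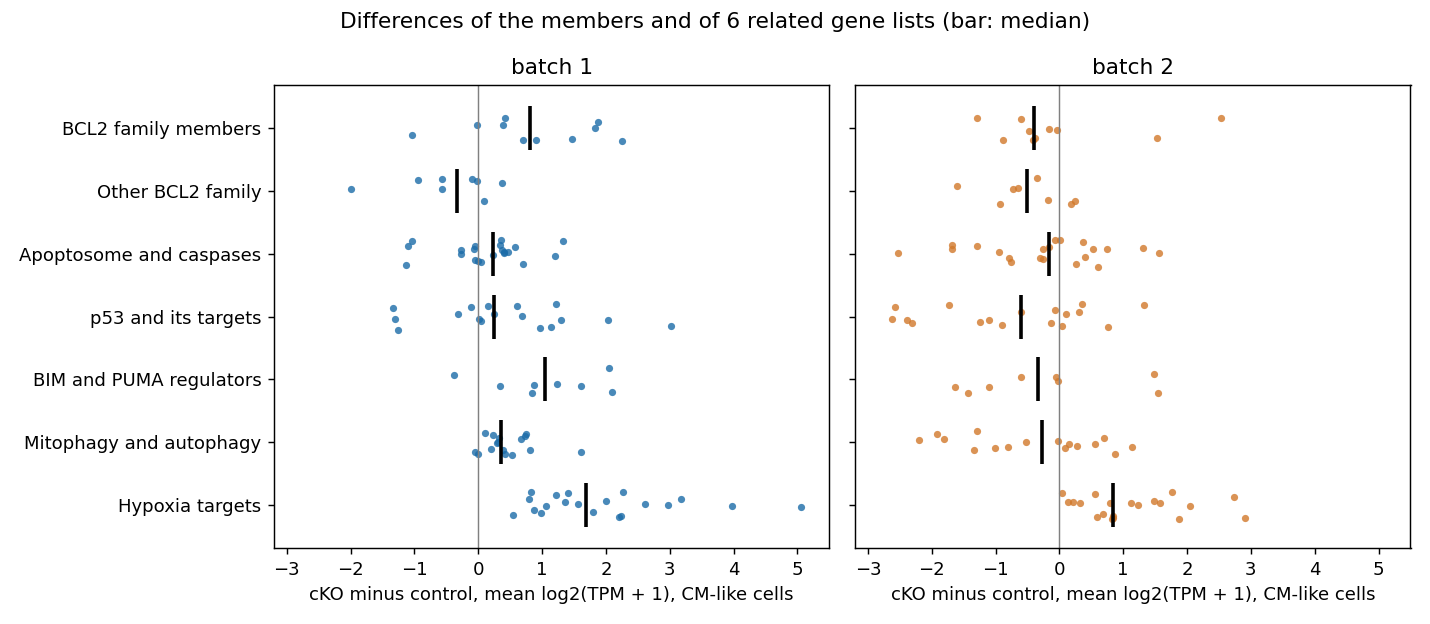
Each point is 1 gene's difference of mean log2(TPM + 1), cKO minus control among CM-like cells, in batch 1 on the left and batch 2 on the right, for the members and 6 related lists, with a bar at the list's median. The members' median passes from 0.81 to -0.40, and the hypoxia targets alone lie above 0 throughout in both batches.

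Markers of other classes were present at low levels in CM-like cells of both genotypes. The summed TPM of the 13 endothelial markers had a median of 15.3 (0.35 to 224) in control and 21 (0 to 429) in cKO CM-like cells, and that of the 15 cardiomyocyte markers was 60472 (31961 to 103459) and 87137 (32626 to 131058). Of these endothelial markers, 1 was found in the majority of CM-like cells in each genotype and none was at 0 in all of them. At least 3 markers of other classes reached a TPM of 10 in 9 of 27 control and 43 of 67 cKO cells. Without those cells Bnip3 was 1.77 and Bnip3l 1.02 log2 units higher in cKO (18 control, 24 cKO cells). Batch 2 then kept 10 cKO cells and 1 control cell, which had Bnip3 at 0 and 3805 detected genes. The sign rule is therefore weak in that set. Mitochondrial transcripts made up a median of 6.30% of TPM in control and 3.00% in cKO CM-like cells, and after rescaling to the remaining transcripts the count of members higher remained 2.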

How the data were processed

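The authors quantified paired-end reads of Smart-seq2 libraries with Salmon against mm10 and deposited TPM per gene and cell; its version and annotation are not given in the sources used here. Per the study's methods they kept cells that mapped well and removed cells whose reporter contradicted their genotype. TPM keeps no sequencing depth, and amplified reads without molecular identifiers keep duplicates. The 143 columns were matched by title to 143 of 170 labelled samples, and 27 samples were not analysed here. All cells in the table were used, without a doublet caller, as each was picked by hand. No 2 columns were identical.

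Analysis used Python 3.11.15, numpy 2.4.6, pandas 2.3.3 and scipy 1.17.1. Ward clustering of the z-scored log2(TPM + 1) of 55 markers gave 5 clusters. A cluster was named after the class with the largest share of raised markers (1 log2 unit over the remaining cells, TPM of 1 or more in over 50% of the cluster), given 3 or more of them and no other class with more among the top 10 genes. Differences are of mean log2(TPM + 1), with a pseudocount of 1 that understates low genes, for genes seen (TPM above 0) in over 10 cells compared. A gene counted as higher or lower at 1 log2 unit pooled with the same sign in both batches. The labels name no embryo, so cells were not replicates and no test was run. All members were named. From each related list, the 3 genes with the largest and the 3 with the smallest pooled difference were named among those with 1 sign in both batches (for hypoxia targets the 3 largest). The 3 genes most like a member were ranked by Pearson correlation over cKO CM-like cells. Of these likenesses, those of Bax, Bcl2, Bcl2l1, Mcl1 and Bcl2l11 had Pearson values of 0.60 or less and are not described. The members and lists were chosen with earlier results of these data known. Positions and 3′ UTRs came from GENCODE M21 (GRCm38). Intervals are exact Clopper-Pearson 95%. Scripts were tested on simulated data. Alternatives, 11 planned and 3 added after seeing the data, are listed at the end.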

Additional observations from a re-analysis of the deposited data

Results flagged for a closer look

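The cluster left unnamed lies outside the comparison between genotypes. It held 9 cells led by mitochondrial transcripts, 2 of them cKO and 7 control. In the 2 cKO cells the mean log2(TPM + 1) was 10.47 for Bnip3 (9.35 and 11.60) and 10.92 for Bnip3l (10.09 and 11.75), above the highest of the 7 control cells in that cluster (7.96 and 6.56). The means of the 7 control cells were 2.85 and 2.70. These levels were flagged as a signal in cells that the comparison of genotypes does not use. In the same 2 cells Bcl2l1, Pmaip1, Bbc3 and Bid were at 0 and Bcl2l11 did not exceed 0.06. Mitochondrial transcripts made up 18.6% and 61.4% of their TPM, with 4462 and 6521 detected genes, and the part of this in the values was not tested.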

How the results depend on the processing

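No paired analysis was possible because the labels name no embryo and each genotype is 1 sample, so no result comes from a test. There were 11 planned and 3 added alternatives, the latter chosen after seeing the data. The alternative without the unnamed cells leaves the genotype comparison as it is. Under all others Bnip3 and Bnip3l were higher in cKO CM-like cells, by 1.77 to 3.19 and 1.02 to 2.62. Both lower ends came from the set without CM-like cells with 3 or more markers of other classes. That set kept 1 control CM-like cell in batch 2. In all, 50 of 67 counts and medians stayed within their tolerance. The counts that follow come mostly without a share over all genes, so their changes cannot be set against one. The number of members higher in cKO, 2 here, became 5 with the log2 ratio of mean TPM + 1, 4 in batch 1 alone and 4 without CM-like cells with 3 or more markers of other classes. The number lower, 0 here, became 1 with a pseudocount of 0.1, with the ratio of means, in batch 1 alone, in batch 2 alone and with clusters from the 1000 most variable genes. The number higher in other control cells, 2 here, became 1 with a pseudocount of 10, in batch 2 alone, with clusters from variable genes and among cells with 8000 to 10000 detected genes, and 4 with the ratio of means and without CM-like cells with other markers. The number lower there, 3 here, became 1 with a pseudocount of 10, with 4 clusters and without CM-like cells with other markers, where Bnip3 had -3.18 pooled, -4.07 in batch 1 and 4.15 in batch 2 against 1 control CM-like cell. With 4 clusters the difference of Bax between other and CM-like control cells turned from -1.49 to 0.27 and that of Bnip3l from -0.90 to 0.92, as the unnamed cells joined the CM-like class (34 control cells). Of 270 differences of single members, 268 moved by less than 1 SD across cells. This bound is wide, so the count says little about stability. Bcl2l1 went from 1.22 pooled to -0.17 in batch 2 alone, a move smaller than its SD across control (2.63) or cKO (2.98) CM-like cells. Depth is unknown, so an absence of Pmaip1, Bbc3, Bid or Bcl2l11 in a cell means not detected.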
